A study of Tetradesmus deserticola with 10 samples.

Results

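In Tetradesmus deserticola, a unicellular green alga from the desert (Acutodesmus deserticola in the submitters' labels), 7 assembled genes peaked after water was added back. Their signal was lower in every hydrated, drying and dry library, though not flat among these in all 7. They were chosen by their measured values: a sum of at least 200 estimated counts over the 10 libraries, a signal in the lower Rehydrated library at least 3 times the highest of the other 8 libraries, and a mean Late signal below 2 times the mean Hydrated signal. Signal here means the length-corrected, TMM-normalized expression that the authors deposited. Of 20783 assembled genes, 3991 had 200 counts or more, and the 7 are members of that group. High levels in Rehydrated and modest levels in Late are therefore what defined these genes, and both are described without a test.

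The libraries came from strain Sni-2, cultured for 6 weeks and dried as drops of 40 µL, with 2 libraries in each of 5 stages. Hydrated drops were collected at once, Early drops after 2.5 h, when 25% of the volume was lost, Late drops after 7.5 h with 60% lost, and Dry drops about 24 h after the start, after 11 h more in the drying chamber. Rehydrated drops were collected 1 h after rewetting. No drops kept wet for the same time were among the samples, so rewetting and elapsed time cannot be told apart, and no source says that libraries with the same stage had separate cultures, so p-values measure only the spread between these libraries. In bulk RNA, fewer cells and less RNA per cell cannot be told apart either.

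As background, green algae of desert soil crusts lose most of their free water between wettings, stop photosynthesis and growth while dry, and resume them after rewetting. A transcript that is abundant soon after rewetting may be newly made, or may be spared while others decay, and its abundance alone does not separate these. The tables hold no gene names, so the members are given by assembly identifier. Their order below follows the ratio of the lower Rehydrated library to the highest other library, and not their function. No list of algal, bacterial or fungal marker genes could be matched for the same reason.

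The members fell into a group of 3 with large ratios and a group of 4 near the threshold. In the lower Rehydrated library the former stood at 8.86, 7.99 and 6.08 times the highest other library, and the latter at between 3.17 and 3.38 times. This split rests in part on single libraries. Without Rehydrated replicate 1 the ratio of TRINITY_DN176506_c4_g2 was 8.77 in place of 3.29, which is as high as in the first group, and without Late replicate 2 that of TRINITY_DN182300_c1_g2 was 5.18. In the first group, TRINITY_DN178348_c1_g1 reached 31.2 without Early replicate 2 and 22.9 without Rehydrated replicate 2, TRINITY_DN173637_c4_g1 15.4 without Rehydrated replicate 2 and TRINITY_DN149395_c2_g3 13.0 without Dry replicate 1. The first gene outside the threshold had a ratio of 2.80. A further gene, TRINITY_DN182154_c3_g1, had the highest ratio of any gene with 200 counts, 9.82, and was left out only because its Late mean was 2.41 times its Hydrated mean. The 2 Rehydrated libraries were the shallowest, with 644705 and 826632 counts against 1162221 to 1917825 in the others. All 7 members had more counts, before any scaling, in each Rehydrated library than in any other library. The rule, which asks for a signal at least 3 times higher there, largely fixes this in advance, so it adds no support. Among the 3991 genes, 114 had such counts.

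**Figure D1:**
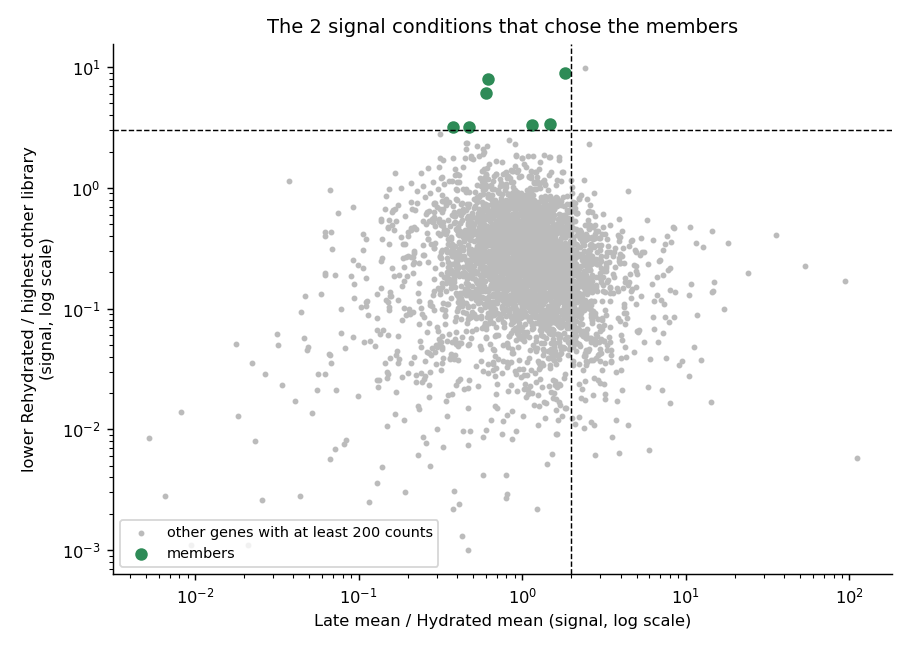
Each point is a gene with at least 200 counts, placed by its mean Late over mean Hydrated signal and by the lower Rehydrated over the highest other library, both on log axes; dashed lines mark the limits of 2 and 3, and 63 of the 3991 genes are not drawn because a ratio is 0 or undefined. The 7 members lie in the upper left, 3 of them at ratios of 6.08 or more, and TRINITY_DN182154_c3_g1 lies just to the right of the limit.

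The highest ratio among the members was that of TRINITY_DN178348_c1_g1. Its signal was 2.42 and 18.4 in the Hydrated libraries, 11.5 and 135 in Early, 14.7 and 23.6 in Late, 38.4 and 34.6 in Dry, and 3101 and 1199 in Rehydrated. The transcript was thus high in both Rehydrated libraries, and among the rest only Early replicate 2 exceeded 100 signal units. The Rehydrated mean of 2150 ± 1345 (SD, n = 2) was 58.9 times the Dry mean and 206 times the Hydrated mean. This gene alone took 0.651% and 0.152% of all counts in the Rehydrated libraries, against 0.0118% or less in each library before it.

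TRINITY_DN149395_c2_g3 had the highest mean signal of the 7 after rewetting, 2784 ± 266 (SD, n = 2). It stood at 29.1 and 72.1 in Hydrated, 72.4 and 200 in Early, 32.5 and 29.7 in Late, 325 and 197 in Dry, and 2972 and 2596 in Rehydrated. Both Dry libraries lay above all Hydrated and Late libraries, and replicate 1 above Early too, so its level before rewetting was not flat. The Rehydrated mean was 10.7 times the Dry mean and 55.0 times the Hydrated mean.

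TRINITY_DN173637_c4_g1 likewise had Dry as the next stage below Rehydrated by mean signal, but at a far lower level. Its signal was 2.44 and 2.44 in Hydrated, 1.94 and 7.66 in Early, 0.569 and 2.37 in Late, 6.40 and 5.28 in Dry, and 118 and 46.6 in Rehydrated. The 8 libraries before rewetting held at most 13.8 estimated counts each, so differences among them are poorly resolved, while the Rehydrated libraries held 216 and 66.2.

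In the group near the threshold, TRINITY_DN182300_c1_g2 was lowest in the dry state. Its counts were 28 and 20 in Hydrated, 11 and 25 in Early, 5 and 20 in Late, 0 and 4 in Dry, and 111 and 88 in Rehydrated; the count of 0 in Dry replicate 1 allows up to 3 counts. Its mean signal after rewetting, 126 ± 4.91 (SD, n = 2), was 48.4 times the Dry mean of 2.61 ± 3.69. Its highest signal before rewetting, 36.4 in Late replicate 2, went with a relative gene length of 0.304 in that library against 0.509 to 0.706 in the 8 other libraries that held its reads, so the ratio of 3.38 depends on how the length was estimated there. On TMM-scaled CPM (a count relative to the scaled library total), which use no length, the ratio was 4.69.

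TRINITY_DN176506_c4_g2 had signals of 17.8 and 8.42 in Hydrated, 3.93 and 9.12 in Early, 18.1 and 11.9 in Late, 3.63 and 6.13 in Dry, and 59.6 and 159 in Rehydrated. Here replicate 2 was the higher Rehydrated library, the opposite of TRINITY_DN178348_c1_g1 and TRINITY_DN173637_c4_g1. The Rehydrated mean was 22.4 times the Dry mean, which rests on 2 and 3 counts.

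The smallest peaks were those of TRINITY_DN180795_c4_g1 and TRINITY_DN186255_c1_g3, and both Rehydrated libraries were close to each other. The former stood at 6.51 and 11.3 in Hydrated, 1.41 and 1.05 in Early, 4.28 and 4.13 in Late, 13.2 and 3.0 in Dry, and 44.3 and 42.2 in Rehydrated. The latter, just inside the factor of 3, stood at 3.04 and 4.10 in Hydrated, 1.94 and 0.647 in Early, 0.905 and 1.79 in Late, 3.49 and 3.02 in Dry, and 13.0 and 14.0 in Rehydrated. On this signal Hydrated held the highest mean before rewetting in both genes, with Dry next and overlapping it. On TMM-scaled CPM the Dry mean was instead above the Hydrated mean. It was 13.4 against 11.5 for TRINITY_DN180795_c4_g1 and 14.4 against 12 for TRINITY_DN186255_c1_g3. On the deposited signal the Rehydrated means of these genes were 4.86 and 3.78 times the Hydrated means.

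**Figure D2:**
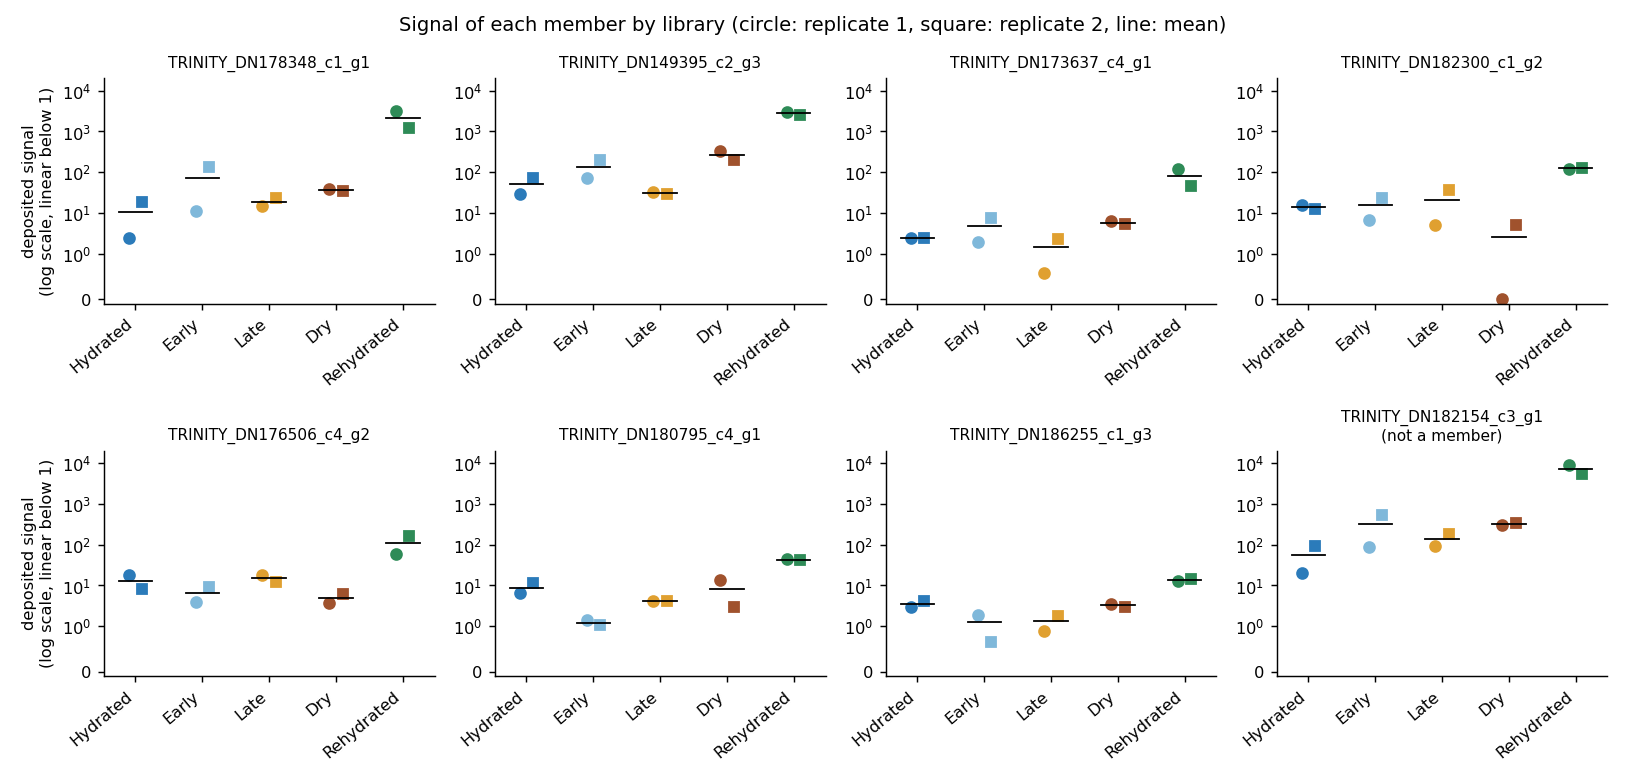
The deposited signal of the 7 members and of TRINITY_DN182154_c3_g1 is plotted for each library by stage, on an axis that is logarithmic above 1 and linear below; circles are replicate 1, squares replicate 2 and lines the means of the 2 libraries. Both Rehydrated points lie above all others in each panel, and the stages before rewetting differ among the members, with a count of 0 in Dry replicate 1 for TRINITY_DN182300_c1_g2.

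In every member the Rehydrated libraries lay above those of the next stage without overlap, as the rule requires, but the next stage differed. On the deposited signal it was Early for TRINITY_DN178348_c1_g1, Dry for TRINITY_DN149395_c2_g3 and TRINITY_DN173637_c4_g1, Late for TRINITY_DN182300_c1_g2 and TRINITY_DN176506_c4_g2, and Hydrated for TRINITY_DN180795_c4_g1 and TRINITY_DN186255_c1_g3. On that scale the libraries of the second and the third stage in the order overlapped in each of the 7. For TRINITY_DN149395_c2_g3 these were Dry and Early, which did not overlap in CPM. For TRINITY_DN186255_c1_g3 they were Hydrated and Dry, which did not overlap in CPM either, with Dry the higher at a mean of 14.4 against 12. In the fit over all genes described below, the log2 difference between Rehydrated and Dry ranged from 1.81 (SE 0.459) for TRINITY_DN186255_c1_g3 to 5.71 (SE 0.905) for TRINITY_DN178348_c1_g1, where the median of all genes tested was 0.45. Against Hydrated the range was 2.08 (SE 0.40) to 7.94 (SE 0.997) in the same genes, with a median of -0.028 over all genes.

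Estimated counts showed that several members were not fully separate measurements. RSEM, which the submitters' processing notes name, divides a read that matches several assembled genes among them, which leaves counts that are not whole. Counts were not whole in all 10 libraries for TRINITY_DN178348_c1_g1 and TRINITY_DN149395_c2_g3 and in 9 for TRINITY_DN173637_c4_g1, which makes 3 of the 7 members with such counts in at least 5 libraries, against 7.99% of the 3991 genes. These 3 are also the 3 with the large ratios. TRINITY_DN176506_c4_g2 had 1 such library, and the other 3 members had none.

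The estimated counts of TRINITY_DN178348_c1_g1, TRINITY_DN173637_c4_g1 and TRINITY_DN182154_c3_g1 added up to a whole number in each of the 10 libraries, within 0.01. No other set of 3 among the 574 genes with such counts in at least 5 libraries did so with either member at a tolerance of 0.03, apart from sets that hold a pair already whole. The 3 genes thus shared reads, and the first 2 do not count as independent members. Their summed counts are called the pool here, which can also hold reads that match a single gene. The pool held 94 and 337 reads in Hydrated, 274 and 1247 in Early, 188 and 425 in Late, 399 and 476 in Dry, and 22065 and 9521 in Rehydrated. After rewetting it made up 3.42% and 1.15% of all counts, against 0.0826% or less in each earlier library. TRINITY_DN182154_c3_g1 took between 80.0% and 92.6% of the pool. The share of TRINITY_DN178348_c1_g1 was 19.0% and 13.2% in Rehydrated and between 6.16% and 14.3% elsewhere, and the groups overlapped. Whether the shares differed through the division of shared reads or through reads of a single gene was not tested. When the 3 were summed, the ratio of the lower Rehydrated to the highest other library was 10.2 on TMM-scaled CPM and 13.9 on library totals. The sum met the rule on library totals only, since its mean Late level was 2.37 times the Hydrated level under TMM and 1.34 times under library totals.

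**Figure D3:**
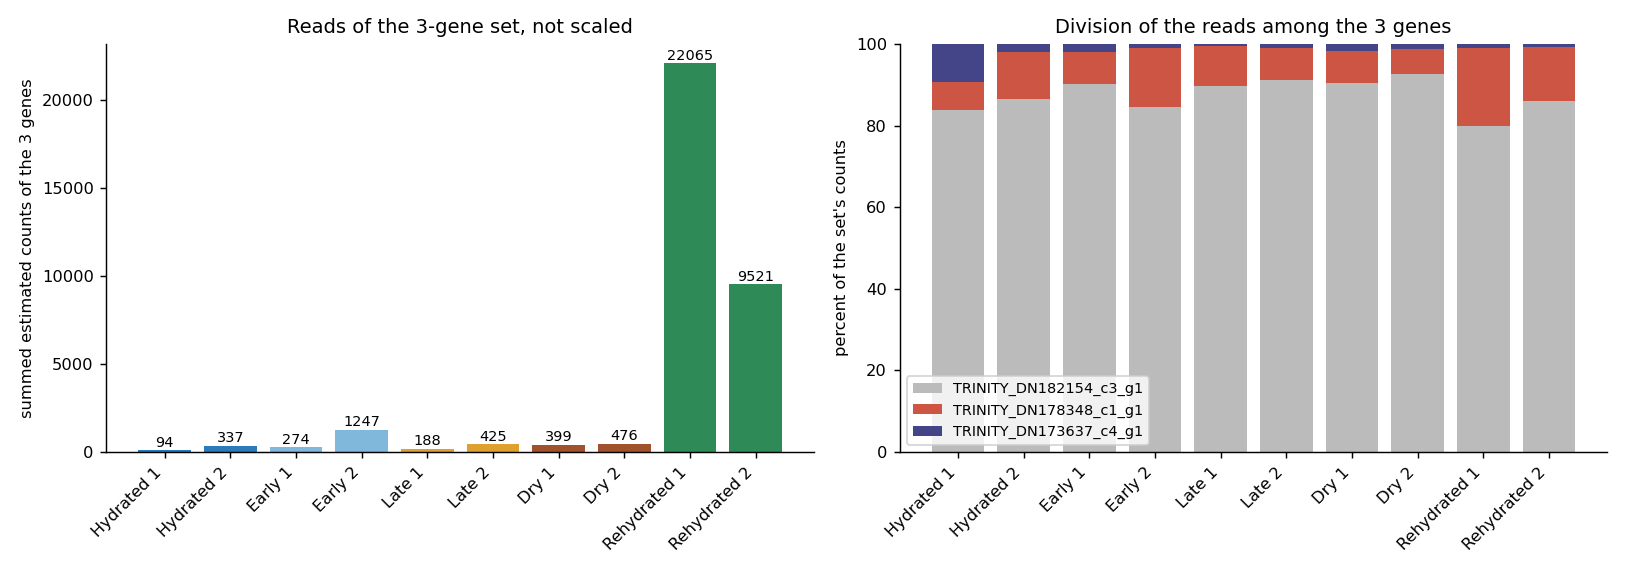
The left panel gives the summed estimated counts, not scaled, of the 3 assembled genes that share reads, in each library. The right panel gives the percent of that pool assigned to each gene. The Rehydrated bars of 22065 and 9521 stand above all others, of which Early replicate 2 is the highest at 1247, and TRINITY_DN182154_c3_g1 holds most of the pool in all libraries.

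TRINITY_DN149395_c2_g3 formed a pair of this kind with TRINITY_DN149395_c2_g1, whose identifier shares its number after DN. Their counts summed to whole numbers in all 10 libraries, 40 and 58 in Hydrated, 81 and 100 in Early, 17 and 20 in Late, 91 and 98 in Dry, and 1335 and 855 in Rehydrated. The partner did not share the peak: it received 28.1 and 9.12 counts in Rehydrated, where TRINITY_DN149395_c2_g3 was assigned 97.9% and 98.9% of the reads. Before rewetting the shares were uneven, with 87.3% and 50.6% of the summed counts assigned to the member in the Dry libraries.

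Some genes differed widely between the libraries of a stage. In Early, replicate 2 exceeded replicate 1 by 3.56 on the log2 scale for TRINITY_DN178348_c1_g1, 2.65 for TRINITY_DN182154_c3_g1, 1.98 for TRINITY_DN173637_c4_g1, and 1.46 for TRINITY_DN149395_c2_g3, and TRINITY_DN149395_c2_g1 differed by -0.42, whereas 90% of the 3973 genes with signal in both libraries lay between -1.10 and 0.96. In Rehydrated, replicate 2 differed from replicate 1 by -1.37, -0.75, -1.35, -0.20 and -1.20 for the same genes in that order, against a median of 0.49 over genes. There 90% of genes lay between -1.25 and 1.74, so only the differences of TRINITY_DN178348_c1_g1 and TRINITY_DN173637_c4_g1 fell outside, by a small margin. Among the members near the threshold, TRINITY_DN182300_c1_g2, TRINITY_DN176506_c4_g2, TRINITY_DN180795_c4_g1 and TRINITY_DN186255_c1_g3 differed by 1.78, 1.22, -0.42 and -1.58 in Early and by 0.079, 1.42, -0.072 and 0.11 in Rehydrated. The gene just outside the threshold, TRINITY_DN175672_c1_g2, whose counts were all whole, differed by 3.71 and -1.53, the former on Early counts of 2 and 18. Whether read sharing bears on these differences was not tested.

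Gene length, taken as counts divided by signal relative to the median gene with 200 counts, ranged from 0.233 in TRINITY_DN149395_c2_g3 to 2.75 in TRINITY_DN186255_c1_g3. The former was longer than only 2.71% of the 3991 genes and the latter longer than 97.7%. The median of the members was 0.782. No pair of members shared a DN number, the part of the identifier that groups related assembled sequences.

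The drying stages were compared next, since the rule places all of them under a common ceiling and does not set Early or Dry against another stage. Hydrated, beside standing under the ceiling, entered the rule as the limit on Late, and this touches both comparisons with Hydrated. In these and the fits above, rounded counts of 9856 genes were tested with edgeR's quasi-likelihood test over all 10 libraries, with Benjamini-Hochberg adjustment over all genes. All 7 members passed the filter on low counts. TRINITY_DN173637_c4_g1 passed it through its counts in Rehydrated, the stage that chose it. It failed the filter in each fit limited to the 2 stages compared, so its lack of calls below says little. The Hydrated libraries are shared by 2 of the comparisons, as are the Early and the Dry libraries.

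In Early vs Hydrated, 1 of the 7 members rose, 1 fell and the other 5 were not called; over all genes 2.33% were higher and 2.73% lower. The median log2 fold change was 0.25 over the members and -0.070 over all genes. The level of TRINITY_DN180795_c4_g1 went from 11.5 ± 3.55 CPM in Hydrated down to 1.77 ± 0.379 in Early (SD, n = 2), a log2 fold change of -2.59 (SE 0.599, edgeR adjusted p = 0.014). Its libraries did not overlap, with 25 and 30 counts in Hydrated and 4 and 2 in Early. The call was lost without Hydrated replicate 2, Early replicate 1 or Early replicate 2, where the log2 fold change was -2.25, -2.87 and -2.40; it held in 15 of 20 alternatives, with adjusted p between 0.00345 and 0.215. TRINITY_DN178348_c1_g1 rose by 2.88 on the log2 scale (SE 0.834, edgeR adjusted p = 0.0472), with 9.92 ± 11.0 CPM in Hydrated and 72.3 ± 86.4 in Early, but its libraries overlapped. Without Early replicate 2 its log2 fold change was 0.26, without Hydrated replicate 1 it was 2.08, and both calls were lost; without Hydrated replicate 2 it was 5.01. The call held in 11 of 19 alternatives, with adjusted p between 2.80e-06 and 0.946. For the summed pool of 3 genes the log2 fold change was 2.50 (SE 0.724, edgeR adjusted p = 0.0471). Its share of all counts overlapped, at 0.0049% and 0.0241% in Hydrated and 0.0169% and 0.0826% in Early. Most of the pool is TRINITY_DN182154_c3_g1, which is not a member, and the pool was fitted with TMM on all libraries only. The remaining 5 members had log2 fold changes between -1.32 and 1.45.

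In Dry vs Hydrated, 2 members rose, 0 fell and the other 5 were not called by edgeR, where 20.4% of all genes were higher and 24.1% lower; 3 members had an unadjusted p under 0.05, none of them lower, and DESeq2 likewise called none lower. The clearest rise was in TRINITY_DN149395_c2_g3, which had 14.6 ± 8.99 CPM in Hydrated and 97.3 ± 26.7 in Dry (SD, n = 2), with no overlap (log2 fold change 2.75, SE 0.523, edgeR adjusted p = 0.000187). The pair that shares reads, when summed, gave 2.80 (SE 0.454). With 45.5 ± 0.0747 CPM in Dry, TRINITY_DN178348_c1_g1 rose by 2.23 on the log2 scale (SE 0.854, edgeR adjusted p = 0.038), a call lost without Hydrated replicate 1, Dry replicate 1 or Dry replicate 2, where the log2 fold change was 1.22, 1.99 and 2.10; it was 4.24 without Hydrated replicate 2. This call held in 11 of 19 alternatives, with adjusted p between 3.62e-05 and 0.666. For the summed pool of 3 genes, most of it not from members, the log2 fold change was 2.81 (SE 0.733, edgeR adjusted p = 0.00343). Its share of all counts was 0.0275% and 0.0299% in Dry, close to the 0.0241% in Hydrated replicate 2, and 0.0049% in Hydrated replicate 1. The pool was not refitted with library totals or with a library left out. TRINITY_DN173637_c4_g1, in the same pool and tested only because of its Rehydrated counts, had 1.58 (SE 0.754, edgeR adjusted p = 0.0928).

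The other 4 members did not pass the test in Dry vs Hydrated. TRINITY_DN182300_c1_g2 and TRINITY_DN176506_c4_g2 had log2 fold changes of -1.64 (SE 0.875) and -1.11 (SE 0.776), and TRINITY_DN180795_c4_g1 and TRINITY_DN186255_c1_g3 0.26 (SE 0.504) and 0.27 (SE 0.49). On the deposited signal, the Dry mean was at least 2 times the Hydrated mean in 3 members, within 2 times in 2 and lower than that in 2, against 30.5%, 27.1% and 42.5% of the genes with 200 counts.

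These directions depend on how the Dry libraries are scaled. Their TMM factors were 0.471 and 0.403, against 0.759 to 1.99 in the other libraries, and when library totals replaced TMM the median log2 fold change of all genes in Dry vs Hydrated moved from -0.52 to -2.29. Relative to that median, TRINITY_DN149395_c2_g3 lay above it on either scale, with 0.95 under library totals, where its call was lost. Under library totals 0 of the 7 members were called higher and 4 lower, against 6.32% and 58.2% of all genes, so their share of lower calls is near that of all genes: TRINITY_DN182300_c1_g2 (-3.41), TRINITY_DN176506_c4_g2 (-2.86), TRINITY_DN186255_c1_g3 (-1.53) and TRINITY_DN180795_c4_g1 (-1.52). The last 2 lay above the median of all genes.

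In Dry vs Early, where neither stage entered the rule other than under the ceiling, 3 members rose, 0 fell and the other 4 were not called by edgeR, where 18.7% of all genes were higher and 23.3% lower; 4 members had an unadjusted p under 0.05, 1 of them lower, and DESeq2 called none lower. TRINITY_DN180795_c4_g1 was at 13.4 ± 10.1 CPM (SD, n = 2) in Dry, a rise of 2.85 on the log2 scale (SE 0.678, edgeR adjusted p = 0.00169), on 4 and 2 counts in Early and 14 and 4 in Dry. Without Dry replicate 1 its log2 fold change was 1.47 and the call was lost. The call held in 17 of the 19 alternatives that tested this gene. In the fit on the 2 stages compared, TRINITY_DN180795_c4_g1 failed the filter on low counts and was not tested. TRINITY_DN186255_c1_g3 rose by 1.59 (SE 0.568, edgeR adjusted p = 0.0279) and TRINITY_DN149395_c2_g3 by 1.30 (SE 0.497, edgeR adjusted p = 0.0395). The call of the former was lost without either Hydrated, either Dry, Early replicate 2 or Late replicate 1 library, with log2 fold changes between 1.05 and 1.49, and without Early replicate 1 its log2 fold change was 2.44. That of the latter was lost without either Hydrated, either Dry, Early replicate 1 or Late replicate 1 library, with log2 fold changes between 0.53 and 1.39, and without Early replicate 2 it rose by 2.15. They held in 9 of 20 and 11 of 21 alternatives, with adjusted p between 0.0215 and 0.729 and between 0.0077 and 0.835. With library totals all 3 calls were lost, at log2 fold changes of 1.59, 0.29 and 0.14, where the median of all genes moved from -0.33 to -1.59. TRINITY_DN182300_c1_g2 had a log2 fold change of -1.89 (SE 0.88, edgeR adjusted p = 0.0878).

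**Figure D4:**
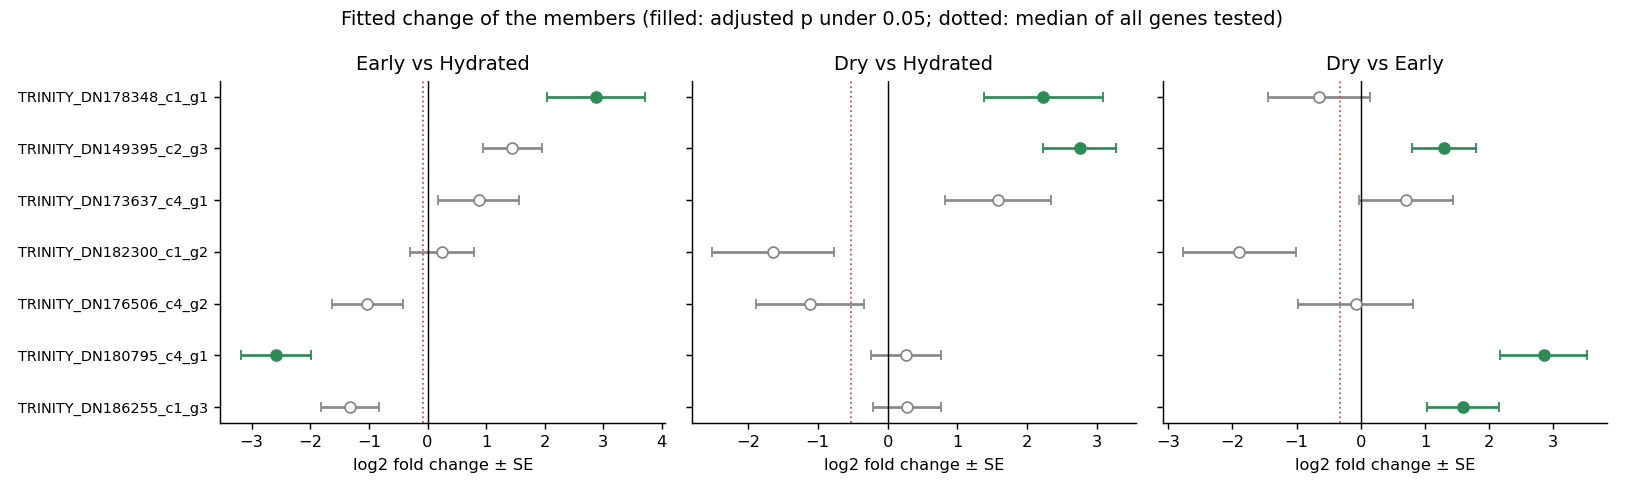
Log2 fold changes of the 7 members with their standard errors in the 3 comparisons among stages before rewetting; filled points have an adjusted p under 0.05 in edgeR's quasi-likelihood test and dotted lines mark the median of all 9856 genes. Among the members 1 rose and 1 fell in Early vs Hydrated, 2 rose in Dry vs Hydrated and 3 rose in Dry vs Early.

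How many genes peak after rewetting also depended on the scaling. With library totals, 39 genes met the same rule, 6 of the 7 members among them; the exception, TRINITY_DN186255_c1_g3, had a ratio of 2.88. With TMM-scaled CPM 6 genes did, all of them members, and TRINITY_DN180795_c4_g1 fell short at 2.96. The 5 other members met the rule under the 3 scalings. On the deposited signal 8 of the 3991 genes had their lower Rehydrated library at least 3 times above all other libraries, while 138 did so for Dry, 26 for Hydrated and none for Early or Late; with library totals the numbers were 39, 16, 47, 0 and 0.

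**Figure D5:**
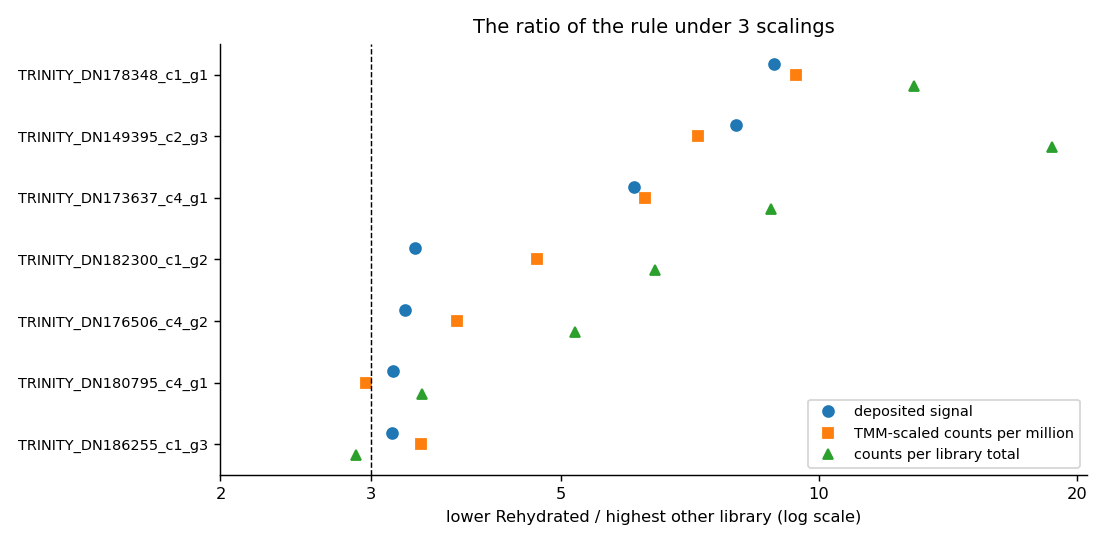
The ratio of the lower Rehydrated library to the highest other library, on a log axis, is given for each member under the deposited signal, TMM-scaled CPM and library totals; the dashed line marks the factor of 3. TRINITY_DN178348_c1_g1, TRINITY_DN149395_c2_g3 and TRINITY_DN173637_c4_g1 stay at 6.08 or more, while TRINITY_DN180795_c4_g1 and TRINITY_DN186255_c1_g3 each drop below 3 under one of the scalings.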

How the data were processed

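RNA sequencing of 10 libraries was available as 2 tables of 20783 assembled genes. The first, deposited by the authors, holds expected counts without normalization, and the other a length-corrected, TMM-scaled expression signal whose unit before TMM (TPM or FPKM) was not stated. The submitters' processing notes name RSEM 1.2.28, Bowtie2 2.2, Trimmomatic 0.35, CASAVA 1.4 and DESeq2, without roles; the assembly and the choice of plant genes were not stated. The labels' protocols describe depletion of ribosomal RNA with kit and custom oligos. Columns (Sdes) were matched to titles (Ades) by number and time code. Libraries held 644705 to 1917825 counts, and 2.59% to 4.58% of a library's values were not whole.

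The members were found by applying the rule to the deposited signal and counts. Expected counts were rounded and filtered with edgeR's filterByExpr at a minimum count of 10 (9856 genes, 98.3% of counts), scaled by TMM and tested with edgeR 4.0.16 (R 4.3.3) in 1 fit with a term per stage and 5 residual degrees of freedom; adjusted p under 0.05 was called. Standard errors were the absolute log2 fold change over the root of F. Limma 3.58.1 and DESeq2 1.42.0 served as alternatives. The fit was also run on simulated data with a common dispersion, as many rises as falls, and the TMM factors taken as true. That run cannot speak to the scaling of the Dry libraries. The members and comparisons were chosen with earlier results of these data known. The rule for naming genes covered the 2 highest signals, the 2 highest ratios, the member just inside the factor and called members with a mean of 10 counts; since only 7 genes met the rule, all were named after their values were seen. Sums of 2 or 3 genes were searched for whole numbers at tolerances of 0.02 and 0.03. That search and the fits on summed genes were added after seeing the data. Limits from counts of 0 cover counting error only.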

Additional observations from a re-analysis of the deposited data

How the results depend on the processing

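The number of genes meeting the rule, 7, was 39 with library totals, 16, 3 and 3 with factors of 2, 4 and 5, 12, 2 and 150 with a minimum sum of 100, of 400 and with none, and 37 (library totals) or 4 (TMM-scaled CPM) with the 3 genes that share reads summed, a check added after seeing the data. It ranged from 5 to 18 when 1 library was left out, highest without Rehydrated replicate 1 and lowest without Late replicate 1.

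The 1 member higher in Early vs Hydrated was 0 with upper quartile factors, library totals, DESeq2, limma on log2(signal + 0.1) or log2(signal + 1), the fit on the 2 stages and the 3 genes summed, which removes that member; the 1 lower member was 0 with limma at either pseudocount. In Dry vs Hydrated the 2 higher members became 1 with upper quartile factors, DESeq2, limma at either pseudocount and the 3 genes summed, and 0 with library totals; the 0 lower members became 4 with library totals and 1 with limma on log2(signal + 1), where 5732 and 3369 of all genes were lower. In Dry vs Early the 3 higher members became 2 with DESeq2 and with the fit on the 2 stages, where TRINITY_DN180795_c4_g1 failed the filter. They became 1 with no filter or with limma at either pseudocount and 0 with library totals. The 0 lower members became 1 with no filter or library totals. With 1 library left out the higher and lower members ranged over 0 to 2 and 0 to 1 in Early vs Hydrated, 1 to 3 and 0 to 1 in Dry vs Hydrated, and 0 to 3 and 0 to 2 in Dry vs Early. For TRINITY_DN149395_c2_g3 in Dry vs Hydrated, 20 of 21 alternatives kept the call, and its adjusted p ranged from 1.08e-06 to 0.108.

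Signs changed as follows; except in the 2 library-total values given first and TRINITY_DN178348_c1_g1, neither value was called. Library totals gave -1.52 for TRINITY_DN180795_c4_g1, -1.53 for TRINITY_DN186255_c1_g3 and -0.20 for TRINITY_DN173637_c4_g1 in Dry vs Hydrated, -0.52 for the last in Dry vs Early and -0.33 for TRINITY_DN182300_c1_g2 in Early vs Hydrated. Limma with 0.1 or 1 added gave -0.12 and -0.095 for TRINITY_DN182300_c1_g2 in Early vs Hydrated, and in Dry vs Hydrated -0.43 and -0.35 for TRINITY_DN180795_c4_g1 and -0.12 and -0.098 for TRINITY_DN186255_c1_g3. Without Early replicate 2, TRINITY_DN173637_c4_g1 and TRINITY_DN182300_c1_g2 were at -0.31 and -0.75 in Early vs Hydrated (highest with a library left out 1.64 and 0.92), and TRINITY_DN178348_c1_g1 and TRINITY_DN176506_c4_g2 at 1.95 and 0.50 in Dry vs Early (lowest -1.75 and -0.85); without Early replicate 1, TRINITY_DN173637_c4_g1 was at -0.29 in Dry vs Early (highest 1.85). In Dry vs Hydrated, TRINITY_DN180795_c4_g1 and TRINITY_DN186255_c1_g3 were at -0.17 and -0.092 without Hydrated replicate 1 and at -1.12 and -0.032 without Dry replicate 1 (highest 0.69 and 0.41). Beyond fewer libraries or summed genes, the cause was not tested.

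Titles share replicate numbers across stages, but nothing says what a number marks, and replicate differences correlated between stages at -0.0815 to 0.149 over genes. With the replicate number as a block, 1 member rose and 1 fell in Early vs Hydrated, 2 rose and 0 fell in Dry vs Hydrated and 3 rose and 0 fell in Dry vs Early. Depth limits the comparisons before rewetting, where TRINITY_DN173637_c4_g1 had at most 13.8 counts in a library and the 4 members near the threshold at most 31. In these libraries 3 counts corresponded to between 1.56 and 2.58 CPM of a library's total. On TMM-scaled CPM, 3 counts were 4.41 and 4.70 in the Dry libraries. The mean Dry levels of TRINITY_DN182300_c1_g2 and TRINITY_DN176506_c4_g2, 3.14 and 3.82 CPM, lay below that.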

Other observations

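A gene just outside the threshold, TRINITY_DN175672_c1_g2, chosen after its values were seen, had whole counts in all 10 libraries. Like the members it was highest in Rehydrated. Its mean Dry signal was 0.352 times its Hydrated mean. In the 3 members with the largest ratios this was 2.40 to 5.15 times. It was 0.187 and 0.372 times in TRINITY_DN182300_c1_g2 and TRINITY_DN176506_c4_g2, and 0.913 and 0.910 times in TRINITY_DN180795_c4_g1 and TRINITY_DN186255_c1_g3. The gene outside the threshold held 5 and 10 counts in Hydrated, 2 and 18 in Early, 0 and 3 in Late, 0 and 2 in Dry, and 148 and 40 in Rehydrated. As in TRINITY_DN178348_c1_g1, Early replicate 2 was its highest library before rewetting, and replicate 1 was the higher Rehydrated library. A further 143 genes met both signal conditions with fewer than 200 counts; their median sum was 16 counts over the 10 libraries, too few to describe library by library.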
